A study of Mus musculus with 9 samples.

Results

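The liver makes most of the proteins that circulate to tag microbes and to clot blood. Complement works as a chain of proteases: the classical and lectin pathways recognize a surface, C3 is cleaved, and C5 to C9 assemble a pore in the target membrane. Coagulation is a similar chain that ends in fibrin, which plasmin, released from plasminogen, dissolves again. Hepatocytes secrete nearly all of these proteins, whereas the C1q chains come mainly from macrophages, and tissue factor, thrombomodulin, the plasminogen activators and the urokinase receptor come mainly from other cells. The 48 genes described here are complement and coagulation proteins other than the serpin inhibitors, taken from the whole-liver count table of 55401 genes by gene symbol. All 48 were found, and 47 passed the filter on low counts, among 15717 genes tested. From general knowledge, 36 were classed as mainly hepatocyte-made, 4 as mainly macrophage-made (C1qa, C1qb, C1qc and Cfp) and 8 as made mainly by other cells (Cfd, C7, F3, F8, Thbd, Plat, Plau and Plaur).

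RNA sequencing was done on 9 whole livers of female mice, 3 in each of 3 groups. Healthy livers (replicates 1, 2 and 3) came from wild-type mice with no treatment, for which the labels give an age of 6 weeks and no time point. Both tumor groups (replicates 2, 3 and 4) came from wild-type mice, for which the labels also give an age of 6 weeks. Their hepatocellular carcinoma (HCC) had been produced by tail-vein hydrodynamic injection of Sleeping Beauty transposon plasmids carrying activated AKT and NRAS. At 1 week after the oncogenes, untreated HCC mice received a blank adeno-associated virus of serotype 8 (AAV8) and miR-22-treated HCC mice received AAV8-miR-22. Livers were harvested at 5 weeks after the oncogenes, that is, 4 weeks after the virus. The healthy mice received neither plasmids nor virus, so tumor, injection and blank virus cannot be told apart in any comparison with them. The methods give 6 weeks as the age at which mice were obtained. Age at harvest may therefore also differ from that of the healthy mice, and could not be told apart either. The methods name the strain as FVB/N, as does 1 field of the labels, while another field names C57BL/6, and a list of plasmids there that serves the whole study also holds β-catenin. Hydrodynamic injection delivers plasmids chiefly to hepatocytes, and a whole tumor-bearing liver mixes tumor, surrounding liver and infiltrating cells.

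Library totals ran from 16664659 to 23908392 counts. TMM factors, which set the scale on which the typical gene does not change, ran from 0.865 to 0.872 in the healthy group, from 1.12 to 1.22 in untreated HCC and from 0.942 to 1.03 after miR-22. Levels below are TMM-scaled CPM (library-size-scaled counts) in the order of the replicate numbers, and a gene is called where the edgeR quasi-likelihood test gave an adjusted p below 0.05 together with a change of more than 1.5-fold. On library totals alone the median gene stood 0.43 log2 units higher in untreated HCC than in the healthy group and 0.23 lower after miR-22 than in untreated HCC. Changes are therefore given relative to the typical gene, and the calls of members that total-count scaling ended are given with the counts. Of 10 hepatocyte marker genes listed, 9 were in the file; their summed level was 130192 to 134826 in the healthy group, 50935 to 63920 in the untreated HCC group and 78081 to 96511 after miR-22. These markers moved in the same directions as the hepatocyte-made proteins, and their part in those results was not tested. Treated replicate 2 stood apart in pancreatic acinar transcripts: Prss2, Cpa1 and Pnlip had 894, 907 and 1126 counts there and at most 56 in any other liver. Without it 18 members were called higher and 1 lower with miR-22, against 22 and 2 with all livers, and 8 higher and 7 lower than in healthy livers, against 10 and 6. In whole tissue, fewer hepatocytes and less RNA per hepatocyte cannot be told apart.

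In untreated HCC, hepatocyte-made complement and coagulation transcripts fell as a broad group, while 8 members rose. Of the 47 members tested, 25 were called lower and 8 higher than in healthy livers, where the same test called 18.1% of all genes lower and 22.7% higher. All 25 that fell were hepatocyte-made. The 8 that rose, named tumor-induced here by this call alone, were C6, C8a and C9 among hepatocyte-made members, C1qa among macrophage-made members, and Thbd, Plat, Plau and Plaur among the rest. The median log2 fold change was -0.65 over the 47 members and -0.90 over the 36 hepatocyte-made members, against 0.01 over all genes. Scaled by library totals, 15 members were called lower and 12 higher, and the median of the hepatocyte-made members was -0.48, where the median gene stood at 0.43. That scaling called 1492 of all 15717 genes lower and 5986 higher. Total-count scaling ended the calls of C1ra, C1s1, C2, Mbl1, Hc, F9, F12, Fgb, Fgg and Cpb2 and brought C1qb, C1qc, C7 and F3 past the thresholds. Under that scaling 27 of the 36 hepatocyte-made members had a negative log2 fold change, against 32 with TMM.

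With miR-22 treatment, 22 members were called higher and 2 lower than in untreated HCC, where the test called 8.32% of all genes higher and 5.47% lower. All 22 were hepatocyte-made, and the 2 that fell were Plat and Plaur. All 36 hepatocyte-made members had a positive log2 fold change, from 0.16 for C3 to 1.56 for C8b, with a median of 0.65 against 0.00 over all genes. Under total-count scaling 6 members remained called higher (C8b, Klkb1, Mbl2, C8g, F11 and Kng1), 4 were called lower (Plat, Plaur, Plau and F3), and 1 hepatocyte-made member had a negative log2 fold change. Of all 15717 genes, that scaling called 835 higher and 2164 lower. Against healthy livers, miR-22-treated livers had 10 members called higher and 6 lower, where the test called 16.9% of all genes higher and 7.05% lower. The 6 still lower were Masp2, C8g, F7, F5, F11 and Klkb1, of which F7 alone was called under total-count scaling. Without treated replicate 4 only F7 and Masp2 were called lower than in healthy livers, and F11 was also not called without healthy replicate 1 or 2. Masp1 was called lower without treated replicate 2 (-0.63) and F10 without treated replicate 3 (-0.62). The 10 higher were C1qa, C1qb, C6, C7, C8a, C9, Thbd, Plat, Plau and Plaur. Of these, C7 (0.99 ± 0.36, edgeR adjusted p = 0.0489) was not called with DESeq2, its size factors, a fit of the 2 groups or without any 1 of the healthy livers or treated replicate 2 (0.63) or 3. C1qa was not called with DESeq2, its size factors or without healthy replicate 2 (0.48) or 3 or treated replicate 2 or 3, and C1qb without healthy replicate 2 (0.51) or treated replicate 3. These comparisons share livers with each other, so their calls are not independent.

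**Figure D1:**
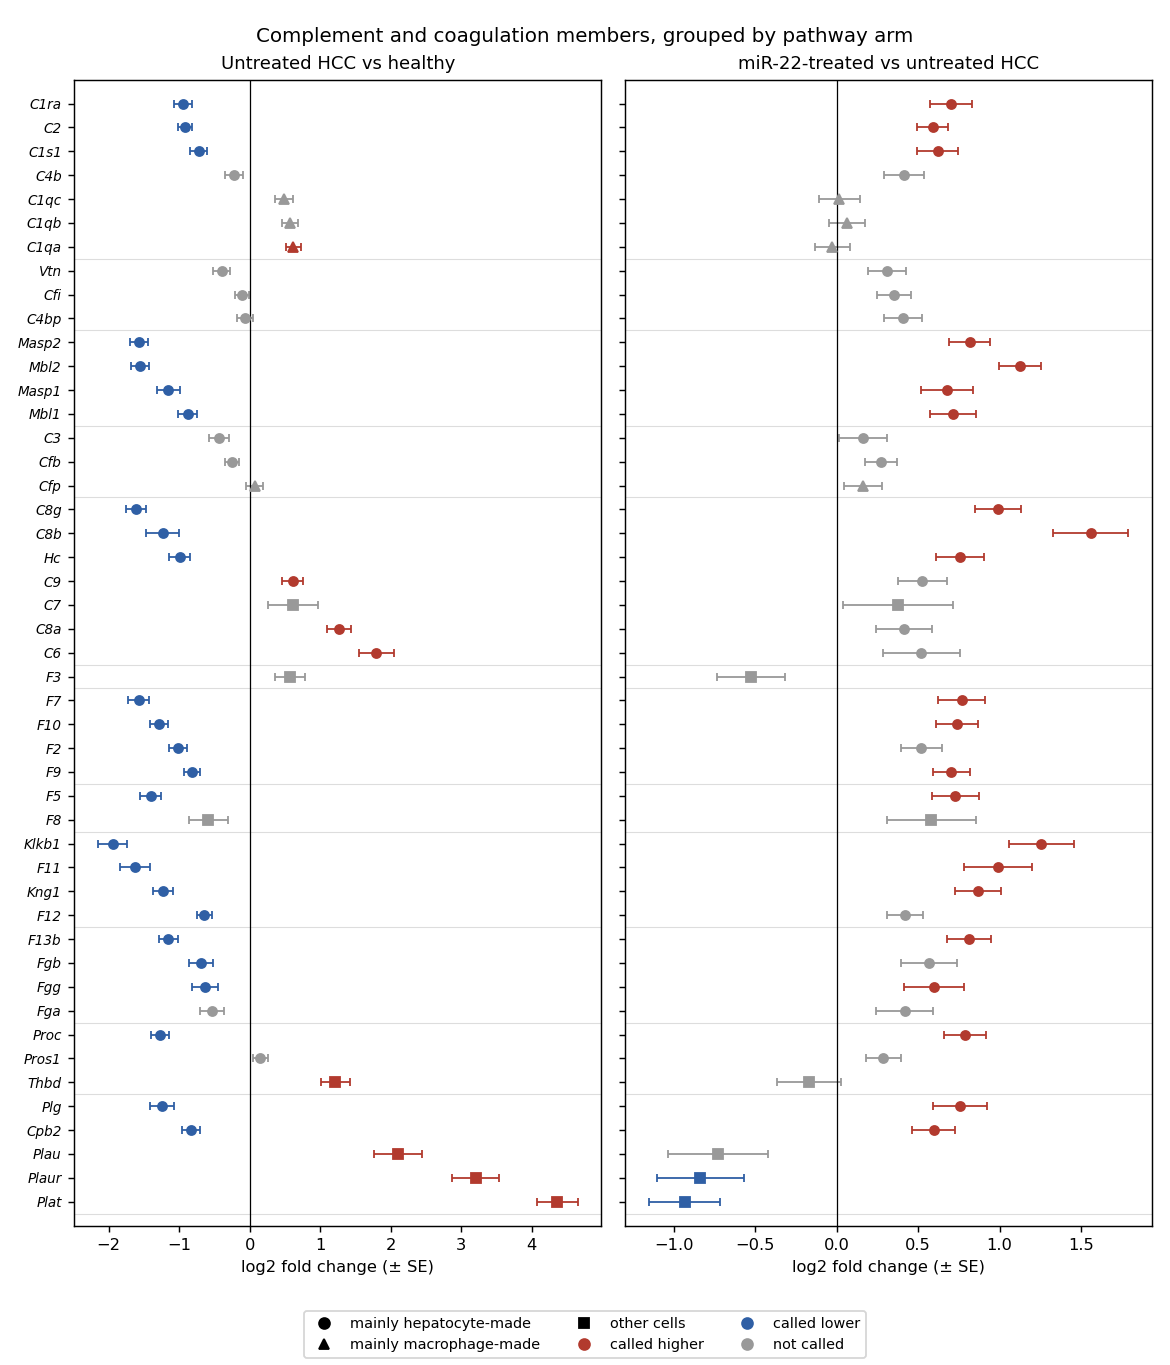
Log2 fold change with its standard error for the 47 members tested, in untreated HCC against healthy livers (left) and miR-22-treated against untreated HCC (right), 3 livers a group, on the TMM scale. Lines separate pathway arms, and red, blue and grey mark members called higher, called lower and not called. Most circles (hepatocyte-made) lie left of 0 on the left and all 36 lie right of 0 on the right, with C6, C8a and C9 right of 0 in both. With total-count scaling 9 hepatocyte-made circles instead of 4 would lie right of 0 on the left, and 1 would lie left of 0 on the right.

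Expressed per kilobase of merged exons, so that genes can be compared, the highest mean level in healthy livers was that of C3 at 2528, followed by the fibrinogen chains Fgg at 1234, Fga at 1199 and Fgb at 1176, and by Kng1 at 871 and Plg at 808. The 3 fibrinogen chains lie too close to be ordered given their spread. In untreated HCC the same genes without Plg and Kng1 led, with C3 at 1866, Fga at 827, Fgg at 792, Fgb at 728 and then Vtn at 486. At the other end, Plat stood at 0.124, Plaur at 0.147 and C7 at 0.212 in healthy livers. Hepatocyte-made members together took 3.92% to 4.16% of all counts in the healthy group, 3.29% to 3.70% in untreated HCC and 3.63% to 4.23% after miR-22. The treated livers thus overlapped both other groups on this share, with treated replicate 4 at 3.63% below untreated replicate 4 at 3.70%, and the untreated HCC livers lay below all healthy livers.

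The terminal complement genes, whose products build the membrane pore, went both ways in untreated HCC, with 3 called higher, 3 lower and 1 not called. C8 is a protein of 3 chains: alpha and beta come from neighbouring genes on chromosome 4 and gamma from an unrelated gene on chromosome 2. In GRCm39 with GENCODE M39, C8b lies at 4:104623328-104662573 on the plus strand and C8a at 4:104672876-104733614 on the minus strand, so the genes point towards each other with 10302 bases between their ends. C8g lies at 2:25388657-25391771 on the minus strand, and 232 of its exon bases are also annotated as exon of Fbxw5 on the other strand, so without stranded reads its count cannot be assigned with certainty.

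C8a was at 158, 189 and 236 in healthy livers, 548, 362 and 487 in untreated HCC and 582, 703 and 577 after miR-22. C8b was at 144, 143 and 161, then 66.7, 43.4 and 79.6, then 189, 245 and 127. The neighbours thus moved apart in tumors: every untreated HCC liver was above all healthy livers for C8a and below them for C8b. C8a rose by 1.26 ± 0.17 log2 units (SE, n = 3 per group, edgeR adjusted p = 5.16e-05) while C8b fell by 1.24 ± 0.23 (adjusted p = 0.000529). With miR-22, C8b rose by 1.56 ± 0.23 (adjusted p = 0.000797), the largest rise of any member, and C8a differed by 0.42 ± 0.17 (adjusted p = 0.101), although every treated liver was above every untreated liver. The ratio of C8a to C8b counts within a liver, which no scaling touches, was 1.09 to 1.47 in the healthy group, 6.13 to 8.33 in the untreated HCC group and 2.88 to 4.55 after miR-22, and the 3 ranges did not overlap. An exact permutation test of 3 livers against 3 cannot give a p below 0.1, so the ratio was not tested. C8g, the gamma chain, was at 313, 339.5 and 348, then 105, 90.8 and 132, then 208, 250.4 and 192, so it fell with C8b in tumors (log2 fold change -1.61 ± 0.14, adjusted p = 1.3e-06) and rose with miR-22 (0.99 ± 0.14, adjusted p = 0.00067).

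The start regions of the neighbouring C8 genes are shown because their transcripts moved apart, and that of Fgb, the fibrinogen beta chain, and Plaur, the urokinase receptor, as a hepatocyte-made member that fell and a member that rose. RefSeq promoters (GRCm38.p6, 250 bases before to 50 after the start) were found for 36 of the 48 members. Both strands were searched for CAAAGTCCA (HNF4), TTGNGCAA (C/EBP), TTCNNNGAA (STAT), TGANTCA (AP-1) and GGNNNTTCC (NF-kB). Capitals mark every match, each sequence is written 5′ to 3′ along its gene, and in Fgb the STAT and NF-kB matches overlap. C8a is at chr4:104876349-104876648 (minus), C8b at chr4:104766067-104766366 (plus), Fgb at chr3:83049814-83050113 (minus) and Plaur at chr7:24462233-24462532 (plus).
C8a: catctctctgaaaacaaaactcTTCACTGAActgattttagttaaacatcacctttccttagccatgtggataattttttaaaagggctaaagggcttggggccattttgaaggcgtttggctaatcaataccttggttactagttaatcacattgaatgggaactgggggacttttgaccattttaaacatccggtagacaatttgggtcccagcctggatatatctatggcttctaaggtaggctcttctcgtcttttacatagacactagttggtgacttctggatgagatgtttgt
C8b: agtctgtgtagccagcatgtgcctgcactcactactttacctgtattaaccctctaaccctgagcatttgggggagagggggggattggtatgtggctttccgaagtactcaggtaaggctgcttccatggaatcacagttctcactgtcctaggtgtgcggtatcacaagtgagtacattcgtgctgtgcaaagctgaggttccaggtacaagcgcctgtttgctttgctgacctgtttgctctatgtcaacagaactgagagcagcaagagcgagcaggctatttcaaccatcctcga
Fgb: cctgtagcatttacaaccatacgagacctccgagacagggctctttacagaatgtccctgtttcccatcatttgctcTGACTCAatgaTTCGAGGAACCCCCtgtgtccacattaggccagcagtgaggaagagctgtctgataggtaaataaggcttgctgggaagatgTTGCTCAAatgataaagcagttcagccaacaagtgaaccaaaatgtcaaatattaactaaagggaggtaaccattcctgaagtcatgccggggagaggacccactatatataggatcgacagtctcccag
Plaur: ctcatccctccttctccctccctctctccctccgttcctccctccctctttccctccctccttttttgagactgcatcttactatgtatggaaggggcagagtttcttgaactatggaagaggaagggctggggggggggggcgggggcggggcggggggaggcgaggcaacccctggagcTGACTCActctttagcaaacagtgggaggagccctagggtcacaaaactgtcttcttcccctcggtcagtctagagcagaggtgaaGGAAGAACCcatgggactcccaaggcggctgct

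C8a held a STAT match and C8b no match to these 5 motifs. The HNF1 half-site GTTAAT, also planned, was left out of the search. Its letters, read on either strand, stand in the C8a, C8b and Fgb sequences above. Fgb held matches to 4 of the 5 motifs, all but HNF4, and Plaur held AP-1 and NF-kB matches. Among 28 hepatocyte-made members with a promoter, 8 held a STAT match (28.6%), against 9.55% of 27025 genes with a promoter in the table. C/EBP matches were in 3 (10.7%) against 3.37%, AP-1 in 3 against 8.97%, and NF-kB in 3 against 20.7%. No member held the HNF4 letters, which 0.555% of all genes held. A match describes letters only.

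C6 and C9, which bind and extend the growing pore, rose with C8a. C6 was at 23.1, 19.97 and 22.4 in healthy livers, 114, 49.97 and 63.7 in untreated HCC and 85.2, 121 and 119 after miR-22. It rose by 1.79 ± 0.25 in untreated HCC (adjusted p = 5.65e-05), and the treated and untreated ranges overlapped, with untreated replicate 2 far above the other untreated livers. Without that liver C6 was called higher with miR-22, at 0.93 (adjusted p = 0.00559), against 0.52 ± 0.24 with it (adjusted p = 0.133). C9 was at 309, 368 and 402, then 638, 469 and 539, then 722, 925 and 720.0, so the 3 groups did not overlap. Its rise in untreated HCC was 0.61 ± 0.15 (adjusted p = 0.0039), close to the fold threshold of 1.5, and the call was lost without healthy replicate 1 (0.50) or untreated replicate 2 (0.49). With miR-22 C9 was called higher without untreated replicate 2 (0.65) or treated replicate 4 (0.59). Against healthy livers, treated livers were higher by 2.31 ± 0.25 for C6 and 1.13 ± 0.15 for C9 (adjusted p = 2.33e-05 and 0.000114).

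Hc encodes C5, the precursor of the fragment that starts the pore. It was at 398, 389 and 426 in healthy livers, 187, 172 and 249 in untreated HCC and 394, 344 and 291 after miR-22. It fell by 0.99 ± 0.15 log2 units in tumors (adjusted p = 9.49e-05) and rose by 0.76 ± 0.15 with miR-22 (adjusted p = 0.00345). Total-count scaling took these differences to -0.58 and 0.53 and ended both calls. FVB/N mice are known to carry a loss-of-function allele of Hc and C57BL/6 mice are not. The labels name both strains and the methods name FVB/N, so the transcript level cannot be read as C5 protein. C7, which joins C5 and C6 in the pore and is made largely outside hepatocytes, was low, at 0.824 to 1.39 in the healthy group, 1.34 to 2.09 in the untreated HCC group and 1.57 to 3.20 after miR-22. The first 2 of these ranges overlapped, and the highest value was that of treated replicate 2.

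**Figure D2:**
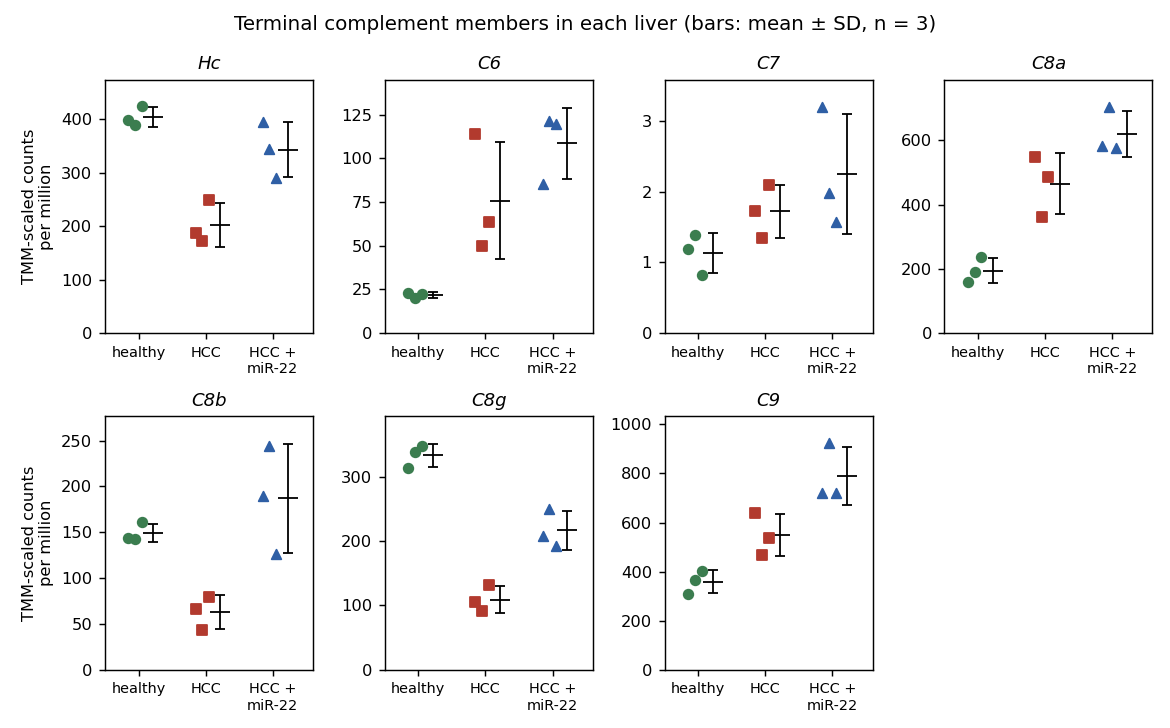
Level of the 7 terminal complement members in each liver, in TMM-scaled CPM on linear axes from 0, with black bars for mean ± SD (n = 3). C6, C8a and C9 were higher in every HCC liver than in every healthy liver, and Hc, C8b and C8g were lower in every untreated HCC liver.

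The 4 lectin pathway members moved together. Mannose-binding lectins recognize sugars, and the proteases Masp1 and Masp2 bind to them. All 4 genes were called lower in untreated HCC and all 4 were called higher with miR-22, of which the fall of Mbl1 (-0.46) and the rises of Mbl1, Masp1 and Masp2 were not called under total-count scaling. The Masp1 rise was also not called without untreated replicate 3 (0.57) or treated replicate 2 (0.54). Among lectin pathway genes outside the members, Colec10 was called lower in untreated HCC (-1.49 ± 0.19) and higher with miR-22 (0.91 ± 0.19). Fcna and Colec11, at -0.51 ± 0.13 and -0.46 ± 0.12 in untreated HCC, were not called. Mbl2 was at 794, 778 and 759 in healthy livers, 266, 218 and 309 in untreated HCC and 581, 603 and 545 after miR-22. Its 3 groups did not overlap, with a fall of 1.56 ± 0.13 in tumors (adjusted p = 7.62e-07) and a rise of 1.12 ± 0.13 with miR-22 (adjusted p = 0.000182). Masp2 was at 214, 212 and 219, then 66.5, 62.6 and 87.7, then 130.2, 139 and 113, and it stayed lower after miR-22 than in healthy livers by 0.75 ± 0.13 (adjusted p = 0.000593). Of its exon bases, 2585 are also annotated as exon of Tardbp on the other strand, so its count could hold Tardbp reads. Mbl1 fell by 0.88 and Masp1 by 1.15 log2 units in tumors, and they rose by 0.71 and 0.68 with miR-22. The ratio of Mbl1 to Mbl2 counts, a pair chosen after its values were seen, was 0.242 to 0.309 in the healthy group, 0.406 to 0.450 in the untreated HCC group and 0.308 to 0.341 after miR-22.

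The classical pathway divided by source. The proteases C1ra and C1s1 and the convertase component C2, all hepatocyte-made, were called lower in untreated HCC, at -0.95 ± 0.13, -0.73 ± 0.12 and -0.92 ± 0.10, and higher with miR-22, at 0.70, 0.62 and 0.59. Total-count scaling ended these 6 calls. The C2 rise, just over 1.5-fold, was also not called with DESeq2, its size factors, upper-quartile scaling, no filter, the filter of 10 counts, a fit of the 2 groups or without untreated replicate 2 or 3 or treated replicate 2 or 3, at 0.52 to 0.58. The C1s1 rise was not called with upper-quartile scaling (0.58) or without untreated replicate 3 (0.53) or treated replicate 3 (0.54). C1ra and C1s1 each have a near-identical copy (C1rb and C1s2) and C4b has C4a, so reads may be split between the copies by the counting. C4b, the scaffold of the convertase, was at 1920, 1758 and 1740 in healthy livers, 1405, 1494 and 1745 in untreated HCC and 2086, 2178 and 1920 after miR-22, and none of its comparisons was called. The C1q chains lie side by side on chromosome 4 (C1qb 4:136606009-136613511, C1qc 4:136616466-136620376 and C1qa 4:136623223-136626161, all on the minus strand).

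C1qa was at 62.4, 44.4 and 49.2 in healthy livers, 84.0, 76.5 and 79.0 in untreated HCC and 77.8, 79.5 and 77.7 after miR-22. Every tumor-bearing liver of either group was above every healthy liver, and the same held for C1qb and C1qc. The rise in untreated HCC was 0.62 ± 0.11 for C1qa (adjusted p = 0.000424), 0.57 ± 0.11 for C1qb (adjusted p = 0.000818) and 0.48 ± 0.13 for C1qc (adjusted p = 0.00561), of which C1qa alone passed the 1.5-fold threshold. Leaving out healthy replicate 2, healthy replicate 3 or untreated replicate 2 took C1qa below that threshold as well, at 0.51, 0.57 and 0.58. Other settings brought its partners past the threshold: C1qb with upper-quartile scaling (0.62), the filter of 10 counts (0.62), total-count scaling (0.99) and without healthy replicate 1 (0.67) or untreated replicate 3 (0.60), and C1qc with total-count scaling (0.91) and without healthy replicate 1 (0.60). With miR-22 the chains differed by -0.03 ± 0.11, 0.06 ± 0.11 and 0.02 ± 0.12 log2 units, with overlapping groups. Properdin (Cfp), which stabilizes the alternative convertase, was at 21.9 to 28.9, 24.4 to 26.4 and 26.0 to 30.7 and was called in no comparison.

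The summed level of 12 macrophage markers was 486 to 539 in the healthy group, 585 to 679 in the untreated HCC group and 603 to 654 after miR-22. In untreated HCC 4 were called higher (Trem2, Gpnmb, Cd68 and Cd14), 2 lower (Timd4 and Mrc1), and 6 were not called. Cd14, at 4.07 to 4.27 in healthy livers and 131 to 249 in untreated HCC, is also made by hepatocytes. Clec4f, not called, and Timd4, both markers of resident Kupffer cells, had log2 fold changes of -0.41 ± 0.12 (adjusted p = 0.0109) and -0.73 ± 0.18 (adjusted p = 0.0045). Trem2, found on macrophages of injured liver and tumors, was at 3.14 ± 0.38 (adjusted p = 1.51e-05). The other markers not called were Vsig4 (-0.42 ± 0.15), Marco (0.03 ± 0.19), Cd5l (0.04 ± 0.13), Csf1r (0.15 ± 0.09) and Adgre1 (0.26 ± 0.12). The part of cell numbers in the C1q levels was not tested.

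**Figure D3:**
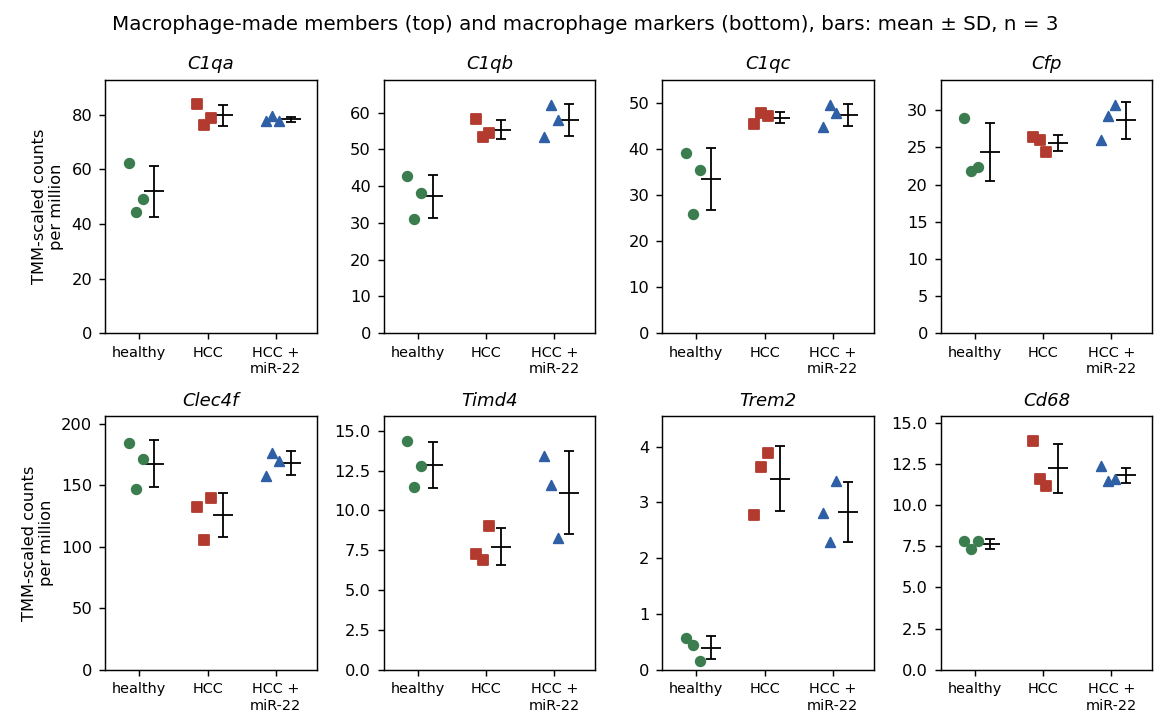
Level of the 4 macrophage-made members (top) and 4 of the 12 macrophage markers (bottom) in each liver, in TMM-scaled CPM on linear axes from 0, with black bars for mean ± SD (n = 3). C1qa, C1qb and C1qc sit higher in both HCC groups than in healthy livers, Clec4f and Timd4 are lower in untreated HCC, and Trem2 and Cd68 are higher in both HCC groups.

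C3 and its regulators were called in no comparison. C3, the common substrate of all 3 pathways, was at 13070, 13100 and 13136 in healthy livers, 9790, 9268 and 9954 in untreated HCC and 11641, 10996 and 9799 after miR-22. Every untreated HCC liver was below the healthy livers, but the difference of -0.44 ± 0.15 (adjusted p = 0.0215) did not reach 1.5-fold. Cfb, the protease of the alternative convertase, differed by -0.25 ± 0.10 (adjusted p = 0.0413). The inhibitors C4bp and Cfi and the plasma protein Vtn, which blocks pore insertion, were called in no comparison. C4bp stood at 733, 821 and 713 and Cfi at 992, 1062 and 924 after miR-22, above all 6 other livers, whose highest values were 629 and 868. Also C4b, C8a, C9 and Pros1 were higher in every treated liver than in every other liver, with C4b and Pros1 called in no comparison. The share of all genes with this order was not counted, so the order is a description only. Cfd, made mainly in fat, had 8 counts or fewer in every liver and was not tested. Total-count scaling turned the difference between untreated HCC and healthy livers positive for C4b, C4bp, Cfi, Vtn and Cfb, at 0.20, 0.35, 0.31, 0.02 and 0.17.

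All 4 vitamin K-dependent clotting proteases were called lower in untreated HCC, F9 no longer so under total-count scaling (-0.40). F7, which starts clotting with tissue factor, was at 180.4, 163 and 158 in healthy livers, 50.1, 49.3 and 68.9 in untreated HCC and 107, 102 and 78.5 after miR-22. It fell by 1.57 ± 0.15 (adjusted p = 1.9e-06), rose by 0.77 ± 0.14 with miR-22 (adjusted p = 0.00284) and stayed 0.81 ± 0.14 below healthy livers (adjusted p = 0.000923). Its neighbour F10 (8:13087293-13106676, 1483 bases downstream of F7 on the same strand) was at 588, 578 and 582, then 221, 208 and 287, then 399, 436 and 359. F10 fell by 1.29 ± 0.13 in tumors (adjusted p = 3.85e-06), so both neighbours were called lower. Prothrombin (F2) fell by 1.02 ± 0.13 (adjusted p = 2.22e-05) and factor IX (F9) by 0.82 ± 0.11 (adjusted p = 5.11e-05). With miR-22, F9 and F10 were called higher at 0.70 and 0.74, and F2 differed by 0.52 ± 0.13 (adjusted p = 0.0112), short of 1.5-fold. Without untreated replicate 4 or treated replicate 4, F2 was called higher with miR-22 (0.61 and 0.60).

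All 4 contact and intrinsic pathway genes were called lower in untreated HCC, F12 no longer so under total-count scaling (-0.23) or without untreated replicate 3 (-0.58). Klkb1 encodes plasma prekallikrein, F11 factor XI, F12 factor XII and Kng1 kininogen, the source of bradykinin. Klkb1 was at 341, 314 and 321 in healthy livers, 64.0, 70.8 and 118 in untreated HCC and 209.9, 231 and 164 after miR-22. The 3 groups did not overlap, and its fall of 1.94 ± 0.20 (adjusted p = 5.06e-06) was the largest of any member, followed by a rise of 1.25 ± 0.20 with miR-22 (adjusted p = 0.00114). F11, which lies 4548 bases from Klkb1 on the same strand (F11 8:45693697-45715177, Klkb1 8:45719726-45747900), was at 165, 157 and 139, then 44.3, 42.2 and 62.8, then 125, 107 and 64.6. It fell by 1.63 ± 0.21 (adjusted p = 3.14e-05) and rose by 0.99 ± 0.21 (adjusted p = 0.00547), with treated replicate 4 close to the highest untreated liver. Kng1 was at 2981, 2921 and 2698, then 1273, 1033 and 1372, then 2254, 2469 and 1984, a fall of 1.23 ± 0.14 and a rise of 0.87 ± 0.14 (adjusted p = 1.22e-05 and 0.00129). Of the exon bases of Klkb1, 2412 are also exon of the predicted genes Gm45753 and Gm63669. Kng1 has a near-identical copy, Kng2, which may share its reads. F12 fell by 0.65 ± 0.11 (adjusted p = 0.000278) and differed by 0.42 ± 0.11 with miR-22 (adjusted p = 0.0155), which was not called.

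Cofactor V (F5) was at 1116, 1234 and 1093 in healthy livers, 433, 381 and 484 in untreated HCC and 787, 788 and 575 after miR-22, with a fall of 1.41 ± 0.15 (adjusted p = 4.45e-06). Cofactor VIII (F8), made mainly by endothelial cells, was at 19.0 to 36.5, 15.9 to 20.5 and 16.0 to 36.2, with overlap in each comparison and no call. It was called lower in untreated HCC without healthy replicate 1 (-0.82) and higher with miR-22 without treated replicate 4 (0.87). The fibrinogen genes, next to each other on chromosome 3, encode the chains that thrombin turns into fibrin. Fgb was at 5121, 4145 and 4215, then 2642, 2413 and 3296, then 4409, 4609 and 3342. In untreated HCC the alpha, beta and gamma chains differed by -0.54 ± 0.18, -0.69 ± 0.17 and -0.64 ± 0.18 (adjusted p = 0.02, 0.00426 and 0.00974), of which the alpha chain missed 1.5-fold, though not without healthy replicate 2 (-0.59) or untreated replicate 4 (-0.74), and the others lost their call under total-count scaling. With miR-22 Fgg alone was called, at 0.60 ± 0.18 (adjusted p = 0.0331), although treated replicate 4, at 2316, was below untreated replicate 4, at 2418. This call was lost with DESeq2, its size factors, upper-quartile or total-count scaling, the filter of 10 counts, a fit of the 2 groups, and without untreated replicate 2 or 3 or treated replicate 2 or 3, at 0.36 to 0.59 in all. Fgb was called without untreated replicate 4 (0.71) or treated replicate 4 (0.70), and Fga without untreated replicate 4 (0.62). The Fgg fall in tumors was not called without healthy replicate 1 or untreated replicate 2 or 3, at -0.56, -0.56 and -0.53. The Fga to Fgg count ratio was 1.26 to 1.32 in the healthy group, 1.36 to 1.39 in untreated HCC, above every other liver, and 1.19 to 1.28 after miR-22. The Fgb to Fgg ratio was 1.49 to 1.51, 1.36 to 1.55 and 1.40 to 1.44. F13b, the carrier subunit of the fibrin-crosslinking factor XIII, fell by 1.16 ± 0.13 and rose by 0.81 ± 0.13 (adjusted p = 1.11e-05 and 0.00126).

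**Figure D4:**
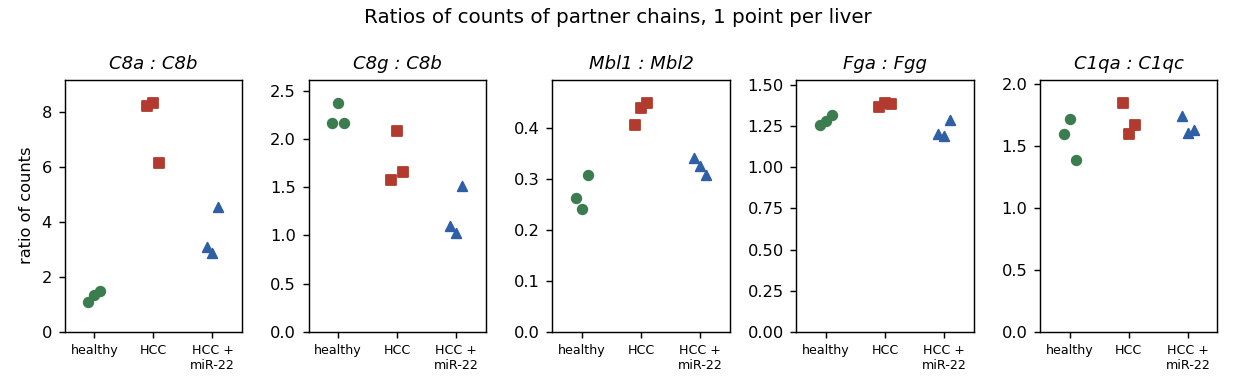
Ratio of the counts of partner chains within each liver, 1 point per liver, on linear axes from 0. The C8a to C8b ratio runs from 1.09 to 1.47 in the healthy group, 6.13 to 8.33 in the untreated HCC group and 2.88 to 4.55 after miR-22, while the Fga to Fgg and C1qa to C1qc ratios stay between 1.19 and 1.85 in all livers.

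The anticoagulants differed from each other. Proc, protein C, was at 607, 562 and 566 in healthy livers, 214, 216 and 289.8 in untreated HCC and 402, 452 and 388 after miR-22, a fall of 1.27 ± 0.13 and a rise of 0.79 ± 0.13 (adjusted p = 4.24e-06 and 0.0013). Its cofactor protein S (Pros1) was at 56.1, 69.1 and 64.5, then 78.9, 60.6 and 70.9, then 87.9, 87.2 and 81.2, and was not called. Thbd, thrombomodulin, the endothelial receptor that turns thrombin to activate protein C, was at 3.08, 5.04 and 4.94, then 10.2, 9.13 and 11.1, then 7.26, 8.99 and 10.7. It rose in untreated HCC by 1.21 ± 0.21 (adjusted p = 0.000293) and differed by -0.17 ± 0.20 with miR-22 (adjusted p = 0.577), so both HCC groups lay above the healthy livers. The summed level of 8 endothelial markers was 344 to 427 in the healthy group, 223 to 280 in the untreated HCC group and 291 to 372 after miR-22. Its genes went different ways in untreated HCC, with Emcn called higher (0.95 ± 0.20), Stab2, Clec4g and Kdr called lower and 4 not called, and their part in the Thbd level was not tested. F3, tissue factor, was at 6.10, 6.80 and 4.56, then 7.45, 10.1 and 8.22, then 6.75, 4.46 and 6.61. Its differences of 0.57 ± 0.21 and -0.53 ± 0.21 (adjusted p = 0.0364 and 0.0884) were not called, and total-count scaling brought both past the thresholds, at 0.99 and -0.76. Upper-quartile scaling or a stricter count filter also brought the first past them, at 0.61 in each, as did leaving out healthy replicate 2 (0.68) or untreated replicate 2 (0.66).

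In the plasminogen system the substrate and its activators went opposite ways. Plg, plasminogen, was at 3050, 3114 and 2885 in healthy livers, 1123, 1146 and 1548 in untreated HCC and 2373, 2371 and 1704 after miR-22. Plat, tissue plasminogen activator, was at 0.943, 0.819 and 0.824, then 21.3, 20.2 and 11.99, then 10.8, 6.95 and 10.1. For both genes the 3 groups did not overlap, in opposite order. Plg fell by 1.25 ± 0.17 and rose by 0.76 ± 0.17 with miR-22 (adjusted p = 4.25e-05 and 0.00669), while Plat rose by 4.36 ± 0.29, or 20.5-fold, and fell by 0.93 ± 0.22 with miR-22 (adjusted p = 1.43e-07 and 0.00894). Even after that fall Plat stood 10.7-fold above healthy livers (adjusted p = 3.53e-06). Cpb2, a carboxypeptidase that slows fibrinolysis, followed Plg, with a fall of 0.83 ± 0.13 and a rise of 0.59 ± 0.13 (adjusted p = 0.000142 and 0.00641). Total-count scaling ended both Cpb2 calls, at -0.41 and 0.36. Its rise was also not called with DESeq2, its size factors, upper-quartile scaling, the filter of 10 counts or without untreated replicate 3 (0.47) or treated replicate 2 (0.58) or 3 (0.50).

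Plau, urokinase, was at 0.692, 1.45 and 0.714, then 4.83, 3.76 and 3.70, then 2.69, 1.59 and 3.04. Plaur, its receptor, was at 0.880, 0.504 and 0.385, then 5.62, 6.13 and 4.52, then 2.29, 3.83 and 3.00. Both were lowest in healthy livers and highest in untreated HCC with no overlap. Their rises were 2.11 ± 0.34 and 3.20 ± 0.33, or 4.30-fold and 9.20-fold (adjusted p = 0.000192 and 4.25e-06). With miR-22 Plaur was called lower at -0.84 ± 0.27 (adjusted p = 0.0383) and Plau was not, at -0.73 ± 0.31 (adjusted p = 0.104). The Plaur call was lost without untreated replicate 2 or 3 or treated replicate 2 or 4 (adjusted p = 0.111, 0.144, 0.128 and 0.0739). Ductal markers moved with these genes: 5 of 6 were called higher in untreated HCC and 4 of 6 lower with miR-22, and their summed level was 29.5 to 42.1, 3340 to 6260 and 1568 to 2714. Spp1 alone made up 3239 to 6077 of the untreated sum and 1527 to 2642 of the treated sum, and Krt19 was called in neither comparison. Stellate and fibroblast markers summed to 352 to 424, 980 to 1139 and 764 to 906, with 4 of 8 called higher and 2 (Dcn and Lrat) called lower in untreated HCC, and 2 higher and 2 lower with miR-22. Neutrophil and monocyte markers summed to 3.28 to 3.90, 20.9 to 27.8 and 17.2 to 26.9. Their part in the levels of Plat, Plau and Plaur was not tested.

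**Figure D5:**
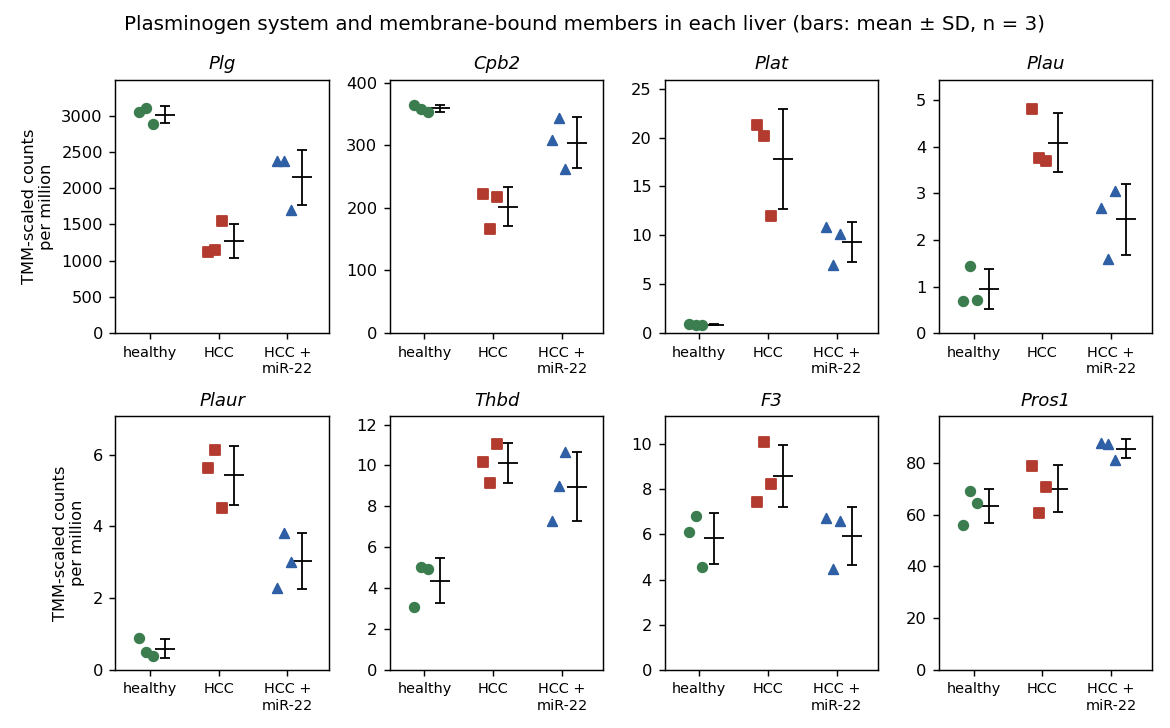
Level of plasminogen system, thrombomodulin, tissue factor and protein S genes in each liver, in TMM-scaled CPM on linear axes from 0, with black bars for mean ± SD (n = 3). Plg and Cpb2 are lowest in untreated HCC, whereas Plat, Plau and Plaur are highest there and lie between the other groups after miR-22.

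Among hepatocyte-made members the livers of 1 group kept a nearly fixed order. Treated replicate 4 had the lowest level of its group in 34 of 36 members, and untreated replicate 4 the highest of its group in 29 of 36. The count of hepatocyte-made members called higher with miR-22, 22 with all livers, was 25 without either of these livers. It was 17 without untreated replicate 3, the lowest of its group in 31 of 36 members, and 18 without treated replicate 2 or 3.

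The delivered microRNA has its seed, bases 2 to 8, in capitals below, and the sites shown are those 3′ UTR stretches of members that hold the 7 complementary letters GGCAGCT, in capitals, in the GENCODE M39 canonical transcripts (GRCm39). They are printed because miR-22 acts through such letters in general.
miR-22-3p: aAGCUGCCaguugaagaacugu
F7 site: cacagtcaGGCAGCTgaggggca
F10 site: gttcttggGGCAGCTgccccacc
F5 site: agtgagatGGCAGCTattatttc
Klkb1 site: agaacaaaGGCAGCTgcactatg
C1qc site: cccagtcaGGCAGCTtacaatga

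Such a match was found in 5 of the 48 members (10.4%), against 14.0% of 20845 coding genes with a 3′ UTR. F7, F10, F5 and Klkb1 were each called higher with miR-22, at 0.77, 0.74, 0.73 and 1.25, and C1qc was not called, at 0.02. Plat and Plaur, the members called lower, held no match in these transcripts. Whether miR-22 acted directly on any member was not tested.

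The members were set beside other genes of the same pathways. Of 32 other complement genes listed, 31 were in the file and 30 were tested; 9 (30%) were called higher and 12 (40%) lower in untreated HCC, against 22.7% and 18.1% of all genes, and 6 (20%) higher and 1 (3.33%) lower with miR-22, against 8.32% and 5.47%. The largest rises in untreated HCC were those of Csmd1, a membrane inhibitor of complement (5.01 ± 0.82), Itgax, a complement receptor chain of myeloid cells (3.39 ± 0.30), and Clu, clusterin, which binds the terminal complex (2.52 ± 0.19). Among those that fell were C1rl (-1.52 ± 0.14) and Colec10, a collectin (-1.49 ± 0.19). With miR-22 C4a rose by 1.00 ± 0.15 and Colec10 by 0.91 ± 0.19, and Clu, the single gene called lower, fell by 0.91 ± 0.18. Against healthy livers, 8 (26.7%) were called higher, led by Itgax, Itgam and Clu, and 4 (13.3%) lower, among them Cd59b and C1rl. The shares of all genes were 16.9% and 7.05%.

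Of 33 other coagulation and fibrinolysis genes, 30 were tested; 10 (33.3%) were called higher and 10 (33.3%) lower in untreated HCC, and 5 higher and 4 lower of the 30 with miR-22, beside the same shares of all genes. A2m, a broad protease inhibitor, was at 0 in 2 healthy livers and at 0.110 in the third, and at 30.1, 42.1 and 13.1 in untreated HCC. F2rl1, a protease-activated receptor, rose by 6.78 ± 0.41 and Anxa2, a cell-surface docking protein for plasminogen and tissue plasminogen activator, by 4.05 ± 0.17. Hrg, histidine-rich glycoprotein (-1.92 ± 0.18), Hgfac, a factor XII-like protease (-1.82 ± 0.15), and Gp1ba, a platelet receptor chain (-1.72 ± 0.51), fell most. With miR-22 A2m, F2rl1 and Anxa2 fell by 1.95 ± 0.34, 1.21 ± 0.24 and 0.70 ± 0.15, and Adamts13, Hrg and Hgfac rose by 1.14 ± 0.20, 1.14 ± 0.18 and 0.90 ± 0.15. Against healthy livers, 10 (33.3%) were called higher, led by A2m, F2rl1 and Anxa2, and 3 (10%) lower (Hgfac, Hrg and Proz). The shares of all genes were 16.9% and 7.05%.

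Of 12 transcription factors of hepatocytes, 5 (41.7%) were called lower and 1 (8.33%) higher in untreated HCC, against 18.1% and 22.7% of all genes. Those called lower were Cebpa, Onecut1, Nr1h4, Hnf4a and Foxa3, at -1.32 ± 0.14, -1.05 ± 0.28, -0.91 ± 0.10, -0.71 ± 0.13 and -0.67 ± 0.20. The remaining 6 were not called, and the highest log2 fold change of the 12 was 0.84. With miR-22 Cebpb rose by 1.07 ± 0.16 and Nr1h4 by 0.60 ± 0.10, 1 was called lower and 9 were not called.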

How the data were processed

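Total RNA of 9 whole livers was sequenced with a non-directional library kit. Per the labels, the authors checked reads with FastQC 0.11.7, quantified them with Salmon against GRCm39/mm39 and tested them with DESeq2 1.18. The deposited values are estimated counts per gene, written as whole numbers, with no normalization. Because the kit keeps no strand, reads from overlapping genes on opposite strands cannot be told apart.

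From these counts, edgeR 4.0.16 (R 4.3.3) was used with its default expression filter, which left 15717 of 55401 genes, TMM factors and 1 quasi-likelihood fit over the 3 groups. Genes were called at a Benjamini-Hochberg adjusted p below 0.05 over all genes tested with a change of more than 1.5-fold. Fold changes are log2 values from the fit with their standard errors. The p-values measure the spread between these 9 livers, since the labels do not say more of how the replicates arose. Replicates of a group differed by 6.15 to 30.1 times sampling noise (chi-square per degree of freedom), so none was counted as a repeat of another. Library totals of 16664659 to 23908392 counts limit the low members, Cfd, C7, Plat, Plau and Plaur, most. The scripts were tested on simulated data. Figures were drawn with matplotlib 3.10.9.

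The members, their classes by source and the gene lists were chosen with earlier results of these data known. All 48 members are named. Of the other complement and coagulation lists, each comparison names up to 3 called genes that rose most and up to 3 that fell most, provided that their groups do not overlap and each liver of the higher group holds 10 counts or more. Positions come from GENCODE M39 (GRCm39), which is a later release than the one the study used, and promoters from RefSeq (GRCm38.p6). Alternatives were DESeq2 1.42.0, other scalings and count filters, fits of the 2 groups compared, a replicate block, no fold threshold and leaving out each liver. Scaling by library totals was added after seeing the data. Some items are not reported here.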

Additional observations from a re-analysis of the deposited data

How the results depend on the processing

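No member reversed a called direction under any alternative run. Counts of members called that moved by over 1.5 times are given here. With scaling by library totals, chosen after seeing the data, 15 members in place of 25 fell in untreated HCC against the healthy group, 6 in place of 22 were higher and 4 in place of 2 lower with miR-22, and 1 in place of 6 was lower in treated than in healthy livers. The share of calls that were higher was then 44.4%, 60% and 92.3% in these 3 comparisons, against 24.2%, 91.7% and 62.5% with TMM. Over all 15717 genes that scaling called 5986 higher and 1492 lower, 835 and 2164, and 3408 and 593, in the same order. With at least 10 counts in every library, 1 member was lower with miR-22, and with no fold threshold 13 members were lower in treated than in healthy livers. Leaving out 1 liver at a time, 1 to 2 members were lower with miR-22, 17 to 26 were higher with miR-22, and 2 to 7 were lower in treated than in healthy livers. In untreated HCC against healthy livers the same gave 23 to 26 lower and 7 to 9 higher. The log2 ratio of the summed level of hepatocyte-made members was -0.22, 0.21 and -0.01 as a share of library totals and -0.64, 0.45 and -0.19 with TMM scaling, for untreated HCC against healthy, treated against untreated and treated against healthy livers. Of the calls made, 21 of 33, 4 of 24 and 7 of 16 held under every alternative in which the gene was tested. Plaur, with 8 and 7 counts in 2 healthy livers, was not tested with at least 10 counts in every library.

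Livers that share a replicate number did not deviate together: the 3 correlations between untreated and treated livers were -0.12, -0.13 and -0.24. With a replicate block, 8 members were called higher and 0 lower with miR-22 (edgeR; 2 lower without the block), and 3 lower in treated than in healthy livers. Depth limits C7, Plat, Plau and Plaur, whose levels in healthy livers were 1.45 CPM or less.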
